A study of Mus musculus with 2 samples.

Results

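Trp53, the mouse gene for the tumour suppressor p53, and Cdkn1a and Mdm2, both textbook targets of p53, were examined for listed c-Fos peaks in mesenchymal stem cells that lack p53. Peaks were assigned to a gene when their centre lay in a fixed window of mm9, the mouse build of the peak file. The windows were chromosome 11 from 69343000 to 69460000 for Trp53 (117 kb), chromosome 17 from 29177000 to 29290000 for Cdkn1a (113 kb) and chromosome 10 from 117075000 to 117200000 for Mdm2 (125 kb). The 3 windows held 2 of the 10870 peaks in the list: 0 for Trp53, 1 for Cdkn1a and 1 for Mdm2.

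The cells were mouse bone marrow mesenchymal stem cells, stromal cells that can give rise to bone and cartilage, labelled as p53 knockout, expressing c-Fos and kept under 20 passages. The study holds 1 ChIP library, made from 50000000 cells with 10 ug of an antibody to c-Fos, and 1 input library of DNA without immunoprecipitation from cells of the same label. Both carry the p53 knockout and the c-Fos expression, so neither condition has a control without it. The labels do not give which part of Trp53 is deleted, how c-Fos was expressed or whether the cells are 1 clone.

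p53 is a transcription factor that is held at low levels by Mdm2, a ubiquitin ligase that marks it for degradation. After DNA damage p53 builds up and switches on target genes. Among these are Cdkn1a, whose product p21 blocks cyclin-dependent kinases and halts the cell cycle, and Mdm2 itself, which closes a feedback loop. AP-1 is a family of dimers of Jun, Fos and ATF proteins, of which c-Fos with a Jun protein is one form. Fos and Jun dimers prefer the site TGACTCA, while Jun paired with a member of the ATF family prefers the related site TGACGTCA. Jun has been described to act on the p53 gene through a variant AP-1 site in its promoter.

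The RefSeq promoter table (build GRCm38.p6) matched 3 of 3 genes and gave 4 promoters, with 2 starts for Cdkn1a. Each spans 250 bases before and 50 bases after the start. Its coordinates are of another build than the peaks and cannot be set against them, so whether a peak lies on any of these promoters was not analysed here. The Trp53 promoter (GRCm38.p6 chr11:69580109-69580358, plus strand, the 250 bases before the start) is shown because its gene is the one without a peak in its window. Capitals mark matches to TGACTCA with 1 mismatch. The upstream promoter of Cdkn1a (GRCm38.p6 chr17:29090729-29090978, plus strand) is shown for a p53 element, marked in capitals, a pattern that p53 is known to bind.
Trp53: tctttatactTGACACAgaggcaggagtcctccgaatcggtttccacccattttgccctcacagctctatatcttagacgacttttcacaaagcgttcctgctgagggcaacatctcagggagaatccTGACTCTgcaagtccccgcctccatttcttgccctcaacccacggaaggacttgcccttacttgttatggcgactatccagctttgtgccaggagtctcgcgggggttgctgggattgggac
Cdkn1a: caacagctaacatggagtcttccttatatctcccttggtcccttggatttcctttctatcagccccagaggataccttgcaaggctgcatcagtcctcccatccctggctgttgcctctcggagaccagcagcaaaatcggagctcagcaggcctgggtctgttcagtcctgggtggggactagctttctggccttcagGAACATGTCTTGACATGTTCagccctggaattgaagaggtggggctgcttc

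None of the 4 promoters held TGACTCA on either strand, whose reverse complement is TGAGTCA, or the ATF site TGACGTCA. Over all 32851 promoters in the table, 5.20% held TGACTCA and 1.79% held TGACGTCA. The looser AP-1 core TGANTCA, which includes TGACTCA, was in 0 of the 4 and in 7.81% of all. In the Trp53 promoter, TGACACA (T5A, counted from the first base of TGACTCA) lay 233 bases before the start and TGACTCT (A7T) lay 115 bases before it. Such matches with 1 mismatch were in 17412 of the 32851 promoters, exact matches included, so they are common, and the other 3 promoters held 0. These letters are matches and not shown binding sites.

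The p53 element of the Cdkn1a upstream promoter, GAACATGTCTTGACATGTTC, ends 31 bases before the start. It is a pair of adjacent p53 decamers with at most 1 mismatch over 20 bases, a pattern found in 29 of the 32851 promoters (0.0883%). A pair of exact decamers 12 bases apart, which shares the first decamer of that element, was also present, and such pairs with 0 to 13 bases between them were in 24 promoters (0.0731%). The downstream Cdkn1a promoter, the Trp53 promoter and the Mdm2 promoter held neither. Both patterns were chosen after the promoters had been seen, so their shares are description only. They are sequence matches, and binding of p53 was not tested. The known p53 elements of Mdm2 lie in its first intron, outside the sequence searched. In base composition, the upstream Cdkn1a promoter was 54.0% G or C with 2 CpG, against 64.8% and 19 CpG downstream. Mdm2 had 65.6% and 29 CpG, and Trp53 had 52.8% and 9 CpG. The median promoter had 52.4% and 6 CpG.

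The Trp53 window held 0 listed c-Fos peaks. Of end-to-end windows of the same length along chromosome 11, 41.8% held at least 1 peak, and of those along chromosomes 1 to 19 and X 28.3% did. A window without a peak was therefore the more common case on this chromosome as well as in the genome. These background windows were not matched to the Trp53 window for genes or for peaks nearby. The lowest score in the list is 50.01, so an empty window means only that no site reached the list. A deleted part of Trp53 would give no reads in these cells, and for that part a lack of c-Fos and a lack of DNA cannot be told apart.

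The nearest peaks to the Trp53 window were unequal in distance and score. Before it, the peak at 69230938 to 69231739 lay 111.3 kb from the window and scored 60.79, in the lower part of the list (83.5% of peaks scored as high or higher). After it, the peak at 69477131 to 69478161 lay 17.1 kb away and scored 150.67 (29.7% as high or higher). Between these peaks ran 245.4 kb without a listed peak. Measured between centres it was 246.3 kb, against a median of 61.4 kb between neighbouring peaks of chromosome 11. On that chromosome 116 of 747 such distances (15.5%) were as long or longer, and these together took up 64.6% of the span of the chromosome between its first and last peaks. Gaps of this length were thus a minority of the gaps, while most of the chromosome lay within one. A gap that holds an empty window of 117 kb must itself be longer than 117 kb. That the gap at Trp53 exceeded the median therefore followed from the empty window and is no separate result.

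The region around Trp53 was otherwise rich in c-Fos peaks. Within 1 Mb of the window centre there were 23, of which 13 lay before the window and 10 after it. The median window of 2 Mb on chromosome 11 held 13, and 10.2% of them held 23 or more. The scores ran from 50.54 to 1060.40. The 4 peaks that scored at least 500 all lay before the window, between 68850321 and 68939780, at 616.27, 1060.40, 808.30 and 773.28. Over the whole list 2.10% of peaks scored that high, and the peak at 1060.40 ranked 9 of 10870. It lay 487.2 kb from the window. After the window the highest score was 161.12, so the listed sites of high score near Trp53 were on 1 side of it. In the gene order of GRCm38.p6, Trp53 sits between Wrap53 and Atp1b2, with Efnb3 and Shbg next. The distances to these genes were not analysed here.

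**Figure D1:**
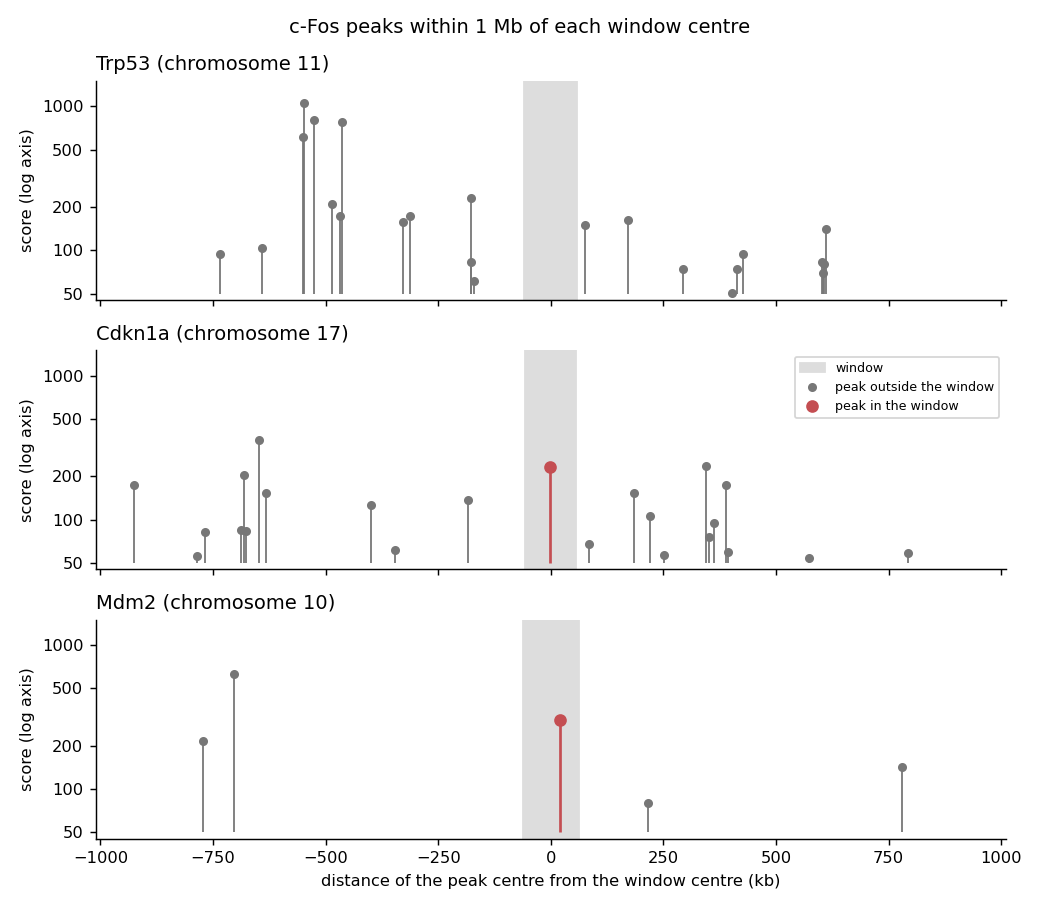
c-Fos peaks within 1 Mb of the centre of each window, with the distance of the peak centre from the window centre in kb on the x axis and the authors' score on a log y axis. Grey bands are the windows, red points the peaks inside them (230.34 for Cdkn1a and 301.46 for Mdm2) and grey points the peaks outside. The Trp53 band is empty, with 4 peaks over 500 to its left.

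The Cdkn1a window held 1 c-Fos peak (exact Poisson 95% interval 0.0253 to 5.57, counting error only). It ran from 29231522 to 29233088 on chromosome 17, 1567 bp, and scored 230.34. Its centre was 1.2 kb from the centre of the window. Which exon, intron or flank of Cdkn1a it overlaps was not analysed here, because the annotation at hand is of another build. Of windows of this length, 34.2% on chromosome 17 and 27.7% on chromosomes 1 to 19 and X held at least 1 peak. A window of this length with at least 1 peak was thus not unusual.

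By score the Cdkn1a peak ranked 1559 of 10870, with 14.3% of the list as high or higher, and 96 of 535 on its chromosome. It stood out more by width: 2.23% of all peaks were as wide or wider. The median width was 1070 bp among the 500 peaks nearest to it in score (212.78 to 252.24), and 18 of those were as wide or wider. Its neighbours were at 181.9 kb before it (score 136.05) and 85.3 kb after it (score 67.33). It was the highest of these 3 scores. The median distance of a peak to its nearest neighbour was 27.3 kb, and 22.1% of peaks were as far or farther from theirs as this one.

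Around Cdkn1a, c-Fos peaks were as many as around Trp53, where the median score was 140.83, but lower in median and highest score. The 10 peaks after the Trp53 window reached only 161.12, so the highest scores there lay before it. The 2 Mb centred on the Cdkn1a window held 23, with 11 on either side of the peak in the window. The median for chromosome 17 was 11, and 17.8% of windows held as many. Scores ran from 54.10 to 359.51 with a median of 95.06, against a median of 101.12 over the list, and 0 of the 23 reached 500. The peak of highest score, 359.51, lay 591.3 kb before the window at 28584440 to 28585704. The peak in the Cdkn1a window was the third highest of the 23, behind this one and a peak of 236.65 at 29576780 to 29577699. In the gene order of GRCm38.p6, Cdkn1a has Srsf3 and Stk38 before it and Rab44 and Cpne5 after it. Which gene each peak lies nearest to, the peak in the window included, was not analysed here.

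**Figure D2:**
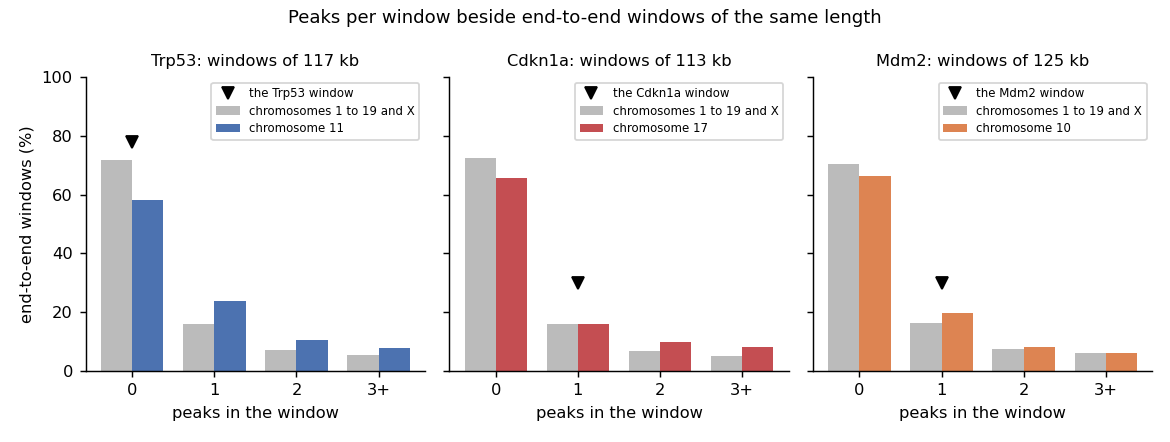
Share of end-to-end windows (y axis, percent) that held 0, 1, 2 or at least 3 c-Fos peaks (x axis), for windows as long as the Trp53, Cdkn1a and Mdm2 windows, on chromosomes 1 to 19 and X (grey) and on the chromosome of the gene (colour). Black triangles mark the number of peaks in each gene's own window, 0, 1 and 1. Windows with 0 peaks are the largest class in every panel.

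The Mdm2 window also held 1 c-Fos peak (exact Poisson 95% interval 0.0253 to 5.57). It ran from 117158414 to 117159234 on chromosome 10, 821 bp, and scored 301.46, the higher of the pair found. Its centre lay 21.3 kb after the centre of the window. Of windows of this length, 33.7% on chromosome 10 and 29.5% on chromosomes 1 to 19 and X held at least 1 peak. In GRCm38.p6 the genes before Mdm2 are Cpm and Cpsf6 and those after it are Slc35e3 and Nup107, and the distance of the peak to each of these was not analysed here.

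By score the Mdm2 peak ranked 883 of 10870, with 8.12% of the list as high or higher, and 47 of 577 on chromosome 10. It was narrow for that score. The 500 peaks nearest in score (270.21 to 348.64) had a median width of 1107 bp, and 9 of them were as narrow or narrower. Over the whole list, where lower scores go with narrower peaks, 16.5% were. The peaks of Cdkn1a and Mdm2 thus lay on opposite sides of the usual width for their score. The file gives no read counts, so width and score cannot be turned into a height of binding for either.

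**Figure D3:**
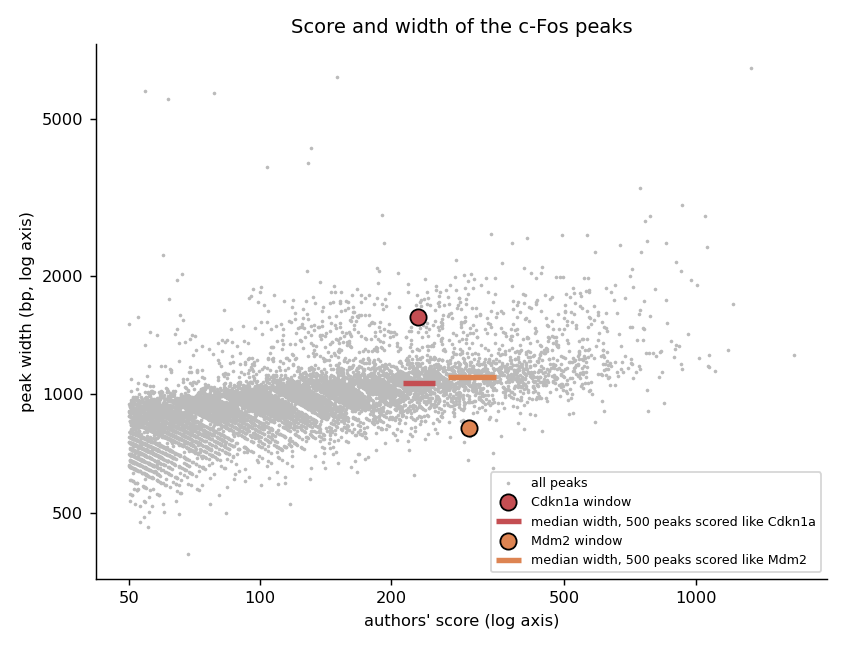
Authors' score (x axis, log) and width in bp (y axis, log) of all 10870 c-Fos peaks in grey, with the Cdkn1a peak in red and the Mdm2 peak in orange. Bars give the median width of the 500 peaks nearest in score, 1070 and 1107 bp, over their range of scores. The Cdkn1a peak (1567 bp) lies above its bar and the Mdm2 peak (821 bp) below its own.

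The Mdm2 peak was isolated. The nearest peaks were 725.5 kb before it (score 627.30, at 116432639 to 116434083) and 194.8 kb after it (score 79.45, at 117353288 to 117353999). Of the distances between neighbouring peaks on chromosomes 1 to 19 and X, 6.45% were as long as the first or longer and 24.1% as long as the second. Its nearest neighbour was farther off than for most peaks, with 7.95% of peaks as far or farther from theirs. Flanks as long as the window held 0 peaks on both sides, while those of Cdkn1a held 0 and 1 and those of Trp53 held 1 and 2. The 2 Mb around the Mdm2 window held 5 peaks, scoring 216.66, 627.30, 301.46, 79.45 and 141.68 in order along the chromosome. That is below the median of 8 for chromosome 10, and 72.6% of windows there held as many or more.

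**Figure D4:**
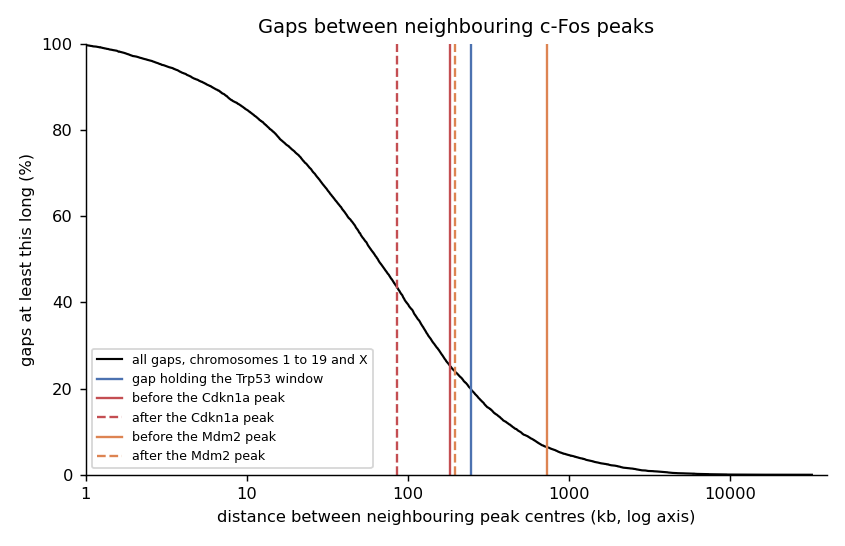
Share of distances between neighbouring peak centres (y axis, percent) that are at least as long as the value on the x axis (kb, log), for chromosomes 1 to 19 and X. Vertical lines mark the gap that holds the Trp53 window (246.3 kb) and the distances before (solid) and after (dashed) the Cdkn1a peak (181.9 and 85.3 kb) and the Mdm2 peak (725.5 and 194.8 kb). The distance before the Mdm2 peak is the longest of the 5, and all 5 exceed the median of 65.1 kb. The gap that holds the Trp53 window had to exceed it, since that window is 117 kb long and empty.

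Side by side, the windows of the p53 targets each held 1 c-Fos peak from the upper part of the list by score, and the window of the p53 gene held 0. Over chromosomes 1 to 19 and X, 27.7% to 29.5% of windows of these lengths held at least 1. On the genes' own chromosomes the shares were 41.8% for Trp53, 34.2% for Cdkn1a and 33.7% for Mdm2. None of these background windows were matched for genes or for peaks nearby. The contrast between the targets and Trp53 depended on the settings. With 50 kb added on either side, the windows held 1 peak for Trp53, 2 for Cdkn1a and 1 for Mdm2. Without the widest 5% of peaks the Cdkn1a window held 0 and the Mdm2 window 1. The 1 ChIP library allows no estimate of the spread between cultures, and no difference between the genes was tested. Expression of Trp53, Cdkn1a and Mdm2 was not measured in this series, so the peaks say nothing of whether the genes were on, and the loss of p53 could not be checked from the list. The antibody's specificity for c-Fos was not tested either.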

How the data were processed

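The mouse cells gave 1 ChIP-seq library for c-Fos and 1 of input DNA, grouped by the antibody in the labels. The list of ChIP peaks was used. Each peak has a score, as deposited by the authors, whose scale is not stated in the file. It served only to describe and rank peaks within the list. Per the submitters' processing notes, CASAVA 1.8.2, MACS 1.4.1 and mm9 were named, with no role given. Not given in the sources used here are the aligner, filters, peak threshold and control. Read counts were not used here, so the depth is unknown. With 1 library no replicate check was possible, and Poisson intervals cover counting error only. They take peaks as independent, but peaks were clustered. Windows as long as that of Cdkn1a held 0.48 peaks on average and up to 15, and 72.3% held 0.

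Positions are 1-based in mm9 unless GRCm38.p6 is named, and no coordinate was converted. The gene windows came with the question, and the mm9 positions of the genes were not checked. The members and lists were chosen with earlier results of these data known. Every peak in a window was described, with the nearest peaks outside it. Other genes of the p53 pathway were not analysed here, since they could be joined to peaks only through an mm9 annotation. End-to-end windows ran from the first to the last peak centre of each chromosome (1 to 19 and X). Ranks and shares are over all 10870 peaks. Width was compared among the 500 peaks nearest in score. Motifs were searched on both strands of RefSeq promoters; the matches with 1 mismatch and the p53 elements were chosen after the promoters had been seen. The code that counts windows and gaps was checked on simulated positions with known answers, and the observed counts were set against no simulated placement. Alternatives were overlap in place of centre, windows widened by 50 kb or narrowed by 25 kb on either side, a minimum score of 100, the list without its widest 5%, and looser motifs. Python 3.11.15, numpy 2.4.6, pandas 2.3.3, scipy 1.17.1 and matplotlib 3.10.9 were used.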

Additional observations from a re-analysis of the deposited data

How the results depend on the processing

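Of 78 values recomputed under the alternatives set out beforehand, 55 stayed within 1.5 times a count or distance, or within the 95% interval of a share, and 23 moved. Many of the former could not change under the setting concerned, so the tally does not measure stability. Windows widened by 50 kb on either side held 1 peak for Trp53, 2 for Cdkn1a and 1 for Mdm2, while 39.9%, 39.7% and 40.6% of windows of those lengths on chromosomes 1 to 19 and X held a peak. Narrowed windows held 0, 1 and 1, with 19.3%, 18.5% and 21.0%. Without the widest 5% of peaks the Cdkn1a window held 0, since its peak is among them, and its score, width and spacing have no value there. The Mdm2 peak then had 6.45% of the list as high in score, 17.3% as narrow, and 28.8% of windows of its length with a peak. At a score of at least 100, both peaks remained and the Trp53 window held 0. The shares of windows with a peak fell to 18.0%, 17.4% and 18.8% for Trp53, Cdkn1a and Mdm2. The share scoring as high became 28.3% for Cdkn1a and 16.0% for Mdm2, and the share as narrow 95.9% (from 97.8%) and 4.36%. The nearest peak was then 181.9 kb from that of Cdkn1a and 725.5 kb from that of Mdm2, and the 2 Mb around Trp53 and Cdkn1a held 13 and 11 peaks. These moves follow from removing peaks of low score. Outside that count, in an alternative chosen after the promoters had been seen, 1 mismatch was allowed and 1 of the 4 promoters matched TGACTCA, against 0 for the exact sites. The depth is unknown, so sites below the lowest score of 50.01 cannot be counted. No paired analysis was possible because there is only 1 library of each kind.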
